A study of Mus musculus with 2 samples.

Results

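Open chromatin was described at the 4 Pde4 genes of mouse common myeloid progenitors, Pde4a, Pde4b, Pde4c and Pde4d. Their regions were chosen by position from the conservative list of accessible regions called on both replicates. A promoter region came within 1 kb of any annotated start of a Pde4 gene (GENCODE M21). A distal region came within 1 kb of no annotated start of any protein-coding gene. Its nearest start of a protein-coding transcript, within 100 kb, was that of a Pde4 gene. This gave 99 of the 65789 regions on chromosomes 1 to 19. Pde4d held 64 of them, Pde4b 28, Pde4a 6 and Pde4c 1. The family was selected on these region counts, in which Pde4d stood highest, so counts of regions are given as a description with no test.

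Pde4 enzymes hydrolyse cyclic AMP, the second messenger made by adenylyl cyclases when Gs-coupled receptors are engaged, and so limit the activity of protein kinase A. Each gene has several alternative starts. Transcripts from early starts encode long proteins with both upstream conserved regions, the regulatory modules before the catalytic domain, and later starts give shorter proteins that lack part or all of them. Pde4b and Pde4d are well known in leukocytes, where inhibitors of the enzymes dampen inflammatory responses.

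The study used ATAC-seq on primary common myeloid progenitors, an assay whose transposase inserts adapters where DNA is free of nucleosomes. These cells give rise to red cells, platelets, granulocytes and monocytes. Both libraries came from adult C57BL/6J males aged 5 to 6 weeks, took 50000 cells each, and form 1 group with replicates 1 and 2, for which the labels name no treatment. They carry the same donor label and nothing names separate animals, so their differences may be technical. The deposited files are peak lists without read counts, so depth is unknown. After merging, the replicates' own thresholded lists held 46420 regions in replicate 1 and 36740 in replicate 2. All 7 of the progenitor markers Kit, Cd34, Gata2, Spi1, Cebpa, Mpo and Runx1 had a promoter region, and none of the 5 genes of mature neutrophils (S100a8, S100a9, Ltf, Camp and Lcn2) did. Of other cell types, 1 of 4 B cell genes (Pax5), 1 of 4 T cell genes (Lck) and 3 of 4 stromal or endothelial genes (Cdh5, Pecam1 and Col1a1) had one. The part of other cells in the Pde4 regions was not tested. In bulk libraries, fewer cells with an open site and a less open site in each cell cannot be told apart.

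The summit windows of the strongest regions are printed here because, within the set, these regions had the highest signal of their kind at each gene. They are read from GRCm38.p6 (the mm10 assembly) on the plus strand, which is the strand of all 4 genes, and each spans 101 bases centred on a summit. Capitals mark matches, on either strand, to the motifs of factors known in these cells or in cyclic AMP responses. The cyclic AMP response element (CRE) was searched as TGACGTCA. Its short form was searched as TGACG, the first bases of the whole element. The motif of PU.1 was GAGGAAGT and that of C/EBP was TTGCNNAA. The motif of the RUNX factors was TGTGGT. The motif of the GATA factors was AGATAA. The strongest distal region of Pde4d is shown at chr13:108956239-108956339 and its strongest promoter region at chr13:109632610-109632710. The only region with a whole CRE is shown at chr13:109822529-109822629. Those of Pde4b are at chr4:102557984-102558084 (distal) and chr4:102430089-102430189 (promoter), the strongest distal region of Pde4a is at chr9:21161469-21161569, and the only region of Pde4c is at chr8:70730221-70730321.
Pde4d distal, RUNX: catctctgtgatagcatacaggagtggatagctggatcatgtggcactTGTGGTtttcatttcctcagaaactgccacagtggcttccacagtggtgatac
Pde4d promoter, RUNX: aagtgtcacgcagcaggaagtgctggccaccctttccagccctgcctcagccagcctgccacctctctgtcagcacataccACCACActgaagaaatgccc
Pde4d distal, CRE: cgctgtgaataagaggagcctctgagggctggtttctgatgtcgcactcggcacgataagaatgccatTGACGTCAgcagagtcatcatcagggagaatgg
Pde4b distal, no match: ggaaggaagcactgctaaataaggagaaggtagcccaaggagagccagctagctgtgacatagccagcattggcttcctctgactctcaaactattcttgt
Pde4b promoter, no match: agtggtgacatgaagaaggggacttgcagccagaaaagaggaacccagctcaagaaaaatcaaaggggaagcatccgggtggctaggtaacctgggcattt
Pde4a distal, no match: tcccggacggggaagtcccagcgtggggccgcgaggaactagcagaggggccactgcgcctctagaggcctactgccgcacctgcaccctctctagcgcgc
Pde4c promoter, CRE short form: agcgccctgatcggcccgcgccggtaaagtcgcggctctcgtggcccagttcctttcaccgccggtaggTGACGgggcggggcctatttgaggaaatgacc

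The strongest promoter region of Pde4a overlaps an annotated untranslated exon, so the bases before its start are shown from RefSeq instead (GRCm38.p6). The RefSeq table holds 9 promoters of the 4 genes, and 2 of these met an open region, 1 of Pde4a and 1 of Pde4b. Here a region had to overlap the 250 bases themselves, a narrower rule than the 1 kb used for starts. The share over all RefSeq promoters was not counted. The 250 bases before the Pde4a start are chr9:21183851-21184100. Capitals mark the CRE short form, read on the minus strand as CGTCA, and the SP motif GGGCGG, read as CCGCCC. Among 31396 RefSeq promoters of the same length, 17.9% held the short form and 33% the SP motif.
Pde4a RefSeq promoter: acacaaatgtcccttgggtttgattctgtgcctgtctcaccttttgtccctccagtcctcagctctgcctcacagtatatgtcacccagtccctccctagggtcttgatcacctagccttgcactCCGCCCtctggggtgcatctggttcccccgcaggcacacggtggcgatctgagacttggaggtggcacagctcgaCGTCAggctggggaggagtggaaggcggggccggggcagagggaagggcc

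Pde4d had 54 distal regions, the most of all 20722 protein-coding genes on chromosomes 1 to 19. Gse1 came next with 30, followed by Elmo1 with 29 and Nav2 with 27. Pde4b had 24 distal regions and ranked 10th, level with Foxp1, Bach2 and others. Pde4a had 4 and Pde4c none. Over all genes 59.2% had at least 1 distal region and the median was 1. Pde4d also came first in each replicate's own list, with 33 distal regions in replicate 1 (Frmd4a next with 21) and 22 in replicate 2 (Frmd4a next with 18). In the longer list of replicated peaks it had 84 against 77 for Foxp1.

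**Figure D1:**
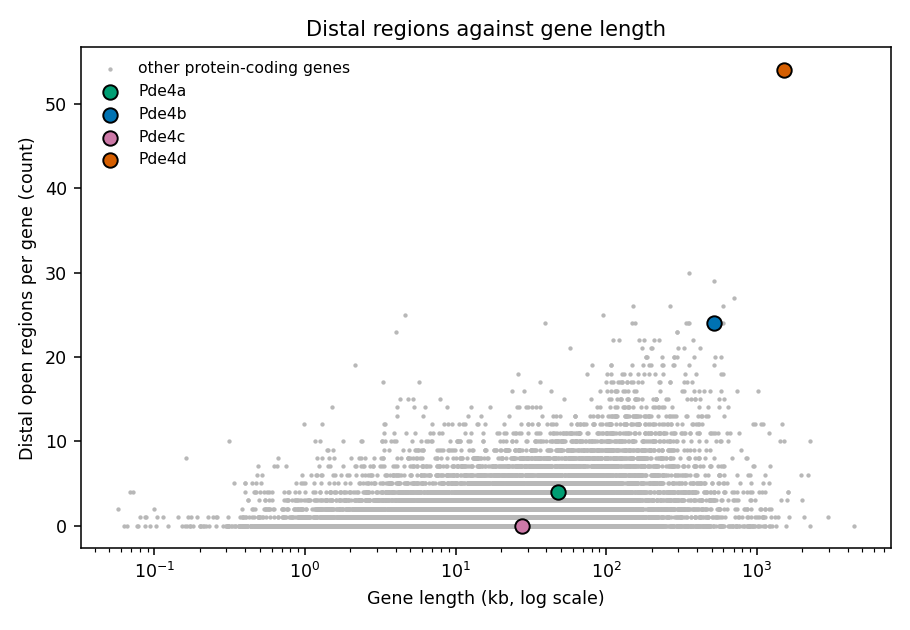
Each point is 1 protein-coding gene, with its length in kb on a logarithmic axis and its number of distal open regions on the vertical axis. Pde4d stands alone at 54 regions, Pde4b lies among the highest genes of its length at 24, and Pde4a and Pde4c sit at 4 and 0.

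The order of the 4 counts followed gene length. Pde4d spans 1504 kb (chr13:108449948-109953461) and was the 15th longest gene. Pde4b spans 519.7 kb (chr4:102087543-102607259), Pde4a 47.53 kb (chr9:21165714-21213248) and Pde4c 27.47 kb (chr8:70723720-70751186). Scaled by length, Pde4d fell behind Pde4a: there were 8.415 distal regions per 100 kb of gene at Pde4a, 4.618 at Pde4b, 3.592 at Pde4d and 0 at Pde4c. By this measure Pde4a ranked 6342nd of all genes, Pde4b 8727th and Pde4d 9577th, where 12273 genes had at least 1 distal region. A second scale was the territory of a gene, meaning the bases within 100 kb for which its start is the nearest. Per 100 kb of territory, Pde4a had 6.677 distal regions, Pde4d 3.852 and Pde4b 3.767, against 2.81 over all territories together and a median gene of 1.676. On this scale Pde4a ranked 3011th of all genes, Pde4d 6413th and Pde4b 6543rd.

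Most genes of like length had fewer distal regions than Pde4d, Pde4b or Pde4a, but not than Pde4c. Among the 200 genes nearest to Pde4d in length, from 521.6 to 2961 kb, the median was 2 distal regions and the highest other value was 27. Pde4b ranked 3rd among its own 200 length neighbours, whose median was 3, and Pde4a 38th among neighbours with a median of 2. Pde4c ranked 154th among neighbours with a median of 1. The distal counts take in regions outside the gene. Counting each region inside a gene regardless of the nearest start, Pde4d held 69, or 4.589 per 100 kb, against 3.499 per 100 kb over all genes. By this count Pde4a had 8.415 per 100 kb, Pde4b 3.656 and Pde4c 3.641, so Pde4d stood above Pde4b. The median of the 55 genes of at least 1 Mb was 7 regions inside the gene. Of these genes, the annotated model Gm20388 (296 regions over 4435 kb) and Fgfr2 (106 over an annotated span of 2961 kb) held more. By nearest start, however, Gm20388 had 0 distal regions and Fgfr2 had 1, against 54 at Pde4d. Zfhx3 came after Pde4d with 40 regions over 1019 kb.

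All 4 Pde4 genes had a promoter region, beside 63.5% of all protein-coding genes. There were 17 such regions, 10 at Pde4d, 4 at Pde4b, 2 at Pde4a and 1 at Pde4c. Of the 17, 12 reached the start of a protein-coding transcript and 5 reached starts of noncoding transcripts only, and with protein-coding starts alone Pde4c had no promoter region. Of the 45 distinct annotated starts of the family, 23 had a region within 1 kb (51.1%), beside 52.3% of all annotated starts. Of the 28 starts of protein-coding transcripts 12 were open (42.9%), beside 57.2% over all genes. Pde4 promoter regions had a median signal of 7.53, where signal is the authors' peak height on a scale that is not stated, against 8.93 for all promoter regions. Their summit windows had a median GC content of 55.4% against 62.4%.

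At Pde4d, 7 of 12 protein-coding starts and 7 of 8 noncoding starts were open. The 3 protein-coding starts nearest the 5′ end comprised 2 without a region and 1 with one. The first, Pde4d-209 at 204.2 kb from the gene's first annotated start, and Pde4d-220 at 410.2 kb, both annotated with 747 residues, had no region within 1 kb. The third, Pde4d-208 at 666.7 kb, encodes the longest annotated protein of the gene with 803 residues. It had a region of signal 10.1 whose summit lay 446 bp from the start, and the summit was 41 bp from the noncoding start Pde4d-210. In the replicates' own lists this region had signals of 7.91 in replicate 1 and 10.6 in replicate 2.

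The strongest Pde4d promoter region lay at Pde4d-213, a start for 700 residues 1183 kb into the gene. Its signal was 11.4, with 10.7 in replicate 1 and 9.85 in replicate 2, and its summit was 120 bp from the start. The start of Pde4d-205 (703 residues) had a region of signal 8.88, but the summit lay 1152 bp away, so only the edge of the region came within 1 kb. Its replicate signals were 7.995 and 8.80. The start of Pde4d-201 (678 residues) had 7.26 in the joint list, with 6.85 in replicate 1 and 6.94 in replicate 2. Weaker regions lay at Pde4d-218 (753 residues, signal 4.31, replicates 4.397 and 3.68) and Pde4d-207 (584 residues, signal 4.81, replicates 4.88 and 4.52). The weakest and the strongest of these open starts, at 4.31 and 11.4, lay farther apart than the replicates of any 1 of them, whereas neighbours in the order did not all differ by more than the replicates did.

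The 3′ part of Pde4d, from which the shortest proteins start, was open as well. Pde4d-203, for 517 residues, had a region of signal 8.85 with its summit 94 bp from the start, and 8.19 and 9.13 in the replicates. The noncoding start of Pde4d-216 was met by 2 regions, of signal 9.21 and 5.54. By contrast, the starts of Pde4d-202 (698 residues), Pde4d-204 (504) and Pde4d-219 (206) had no region within 1 kb, although a summit lay 1566 bp from the last of these. The first annotated start of the gene, that of the noncoding transcripts Pde4d-211 and Pde4d-215, had a region at chr13:108449437-108450138 with signal 10.8. That region recurred at 9.82 in replicate 1 and 10.8 in replicate 2.

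**Figure D2:**
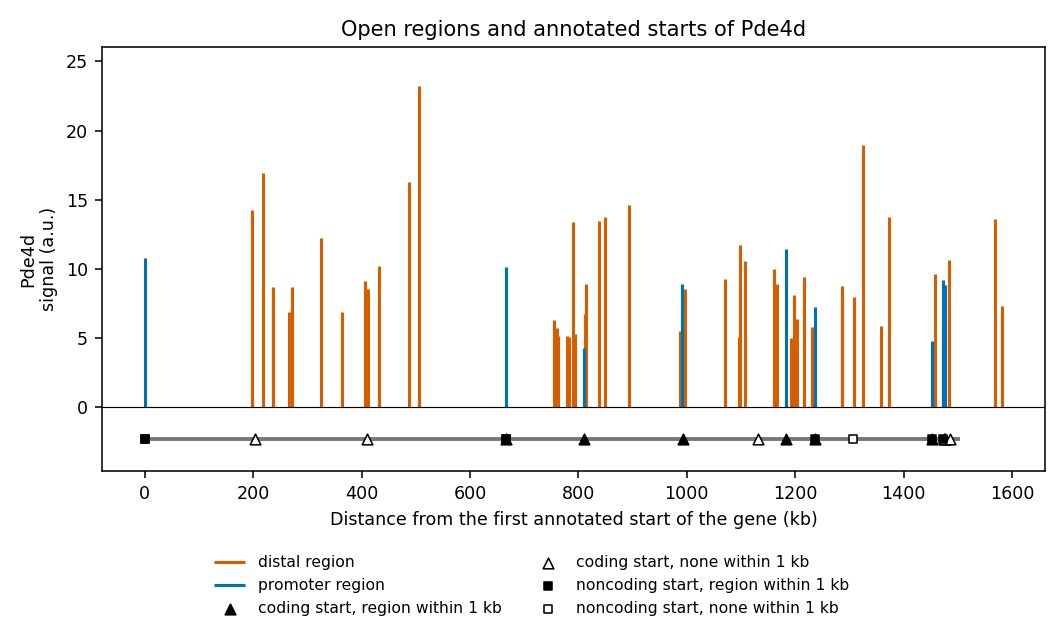
Vertical lines are the 64 Pde4d regions, placed by the distance of their summit from the first annotated start (kb) and drawn to the height of the authors' peak signal (arbitrary units). The grey bar is the gene, with filled symbols for starts that have a region within 1 kb and open symbols for starts without one: the tallest line, 23.2 at 506.3 kb, stands between starts, and the tallest promoter line is 11.4 at 1183 kb.

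The distal regions of Pde4d were mostly intronic and included its strongest ones. Introns were numbered on Pde4d-209, the protein-coding transcript that spans the most, with 17 exons. Intron 3, 707.7 kb long and holding 6 of the later protein-coding starts, contained 37 regions, of which 32 were distal, or 5.228 regions per 100 kb. Intron 1 held 8 over 205.8 kb and intron 2 held 4 over 172.3 kb, with 1 more there that was over 100 kb from any start. Intron 8 was the densest intron of the gene, with 6 regions over 30.18 kb (19.88 per 100 kb), 3 of them at starts. Intron 7 held 4 over 130.9 kb. No region had its summit in an exon of this transcript, and introns 4, 6 and 9 to 16 held none.

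Of the 64 Pde4d regions, 9 were in the top 10% of all regions by signal, and all 9 were distal and present in both replicates' thresholded lists. How many of the top 10% over all genes were in both lists was not counted. The strongest Pde4d region, chr13:108955938-108956631 in intron 2, had a signal of 23.2, with 20.5 in replicate 1 and 20.4 in replicate 2. It lay at the 99.9th percentile of all regions in the joint list and in each replicate. It was 96.1 kb from the nearest protein-coding start, just inside the 100 kb limit. The second, chr13:109775895-109776509 in intron 7, had 18.99, with 16.3 and 17.96 in the replicates. The third, chr13:108666997-108667504 in intron 1, had 16.9 (15.1 and 15.4), and the fourth, chr13:108937126-108937832 in intron 2, had 16.3 (14.8 and 14.1). The replicates lay close together in each of these 4, and all 4 stood above each promoter region of the family in both replicates.

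The other 5 strong regions were spread along the gene. In intron 3 they were chr13:109343512-109343949 with signal 14.6 (13.3 in replicate 1 and 11.7 in replicate 2) and chr13:109298691-109299544 with 13.7 (12.3 and 13.7). The region with the CRE, chr13:109822142-109822931 in intron 7, had 13.7, with 11.8 and 14.6. Those before Pde4d-209 (chr13:108646798-108647764, signal 14.3, replicates 13.5 and 11.7) and beyond the gene's 3′ end (chr13:110018379-110018911, signal 13.6, replicates 11.5 and 13.3) lay outside the transcript. The order of these 5 differed between the replicates, so their ranking among themselves was not larger than the replicate spread.

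Density changed along Pde4d. Between the start of Pde4d-213 and that of Pde4d-201 there were 8 regions in 53.38 kb (14.99 per 100 kb), all of modest signal, with a median of 6.18. Between Pde4d-220 and Pde4d-208 there were 6 in 256.5 kb (2.339 per 100 kb), with a median of 10.2 and the gene's highest value. The 18.15 kb after the last protein-coding start held none. Inside the gene 8 further regions were over 100 kb from any protein-coding start and thus outside the set. Of these, 7 lay in the first 204.2 kb, and the strongest, chr13:108465701-108466346, had a signal of 18.3 and lay 149.5 kb from the nearest protein-coding start, that of Depdc1b.

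Pde4b had 4 of 9 protein-coding starts open and 1 of 4 noncoding starts. The first start, for the longest annotated protein (Pde4b-208, 736 residues), had no region within 1 kb. Pde4b-207 (721 residues) and Pde4b-206 (212 residues) shared a region of signal 6.31, with 5.68 in replicate 1 and 5.95 in replicate 2. Pde4b-210 (161 residues) had 8.16, the strongest promoter region of the gene, which had 7.06 in replicate 2 and met no peak of replicate 1's ranked list. Pde4b-203 (564 residues) was met by 2 regions of lower signal, 4.66 and 3.27. By the authors' −log10 p, whose test is not named, the order differed. The region of signal 4.66 had the highest of the 4 promoter regions, 64.6, against 28.0 at Pde4b-210. Of the 4 promoter regions of Pde4b, 3 were in neither replicate's thresholded list, the strongest by signal among them. Only the region of signal 4.66 was in both lists. The starts of Pde4b-205, Pde4b-201, Pde4b-202 and Pde4b-204 were without a region.

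Distal regions of Pde4b were denser toward its 3′ end and beyond it. Intron 7 of Pde4b-208, 64.72 kb long, held 5 distal regions (7.726 per 100 kb), whereas intron 3, 292.1 kb long, held 4 (1.369 per 100 kb). Each also held 2 promoter regions, and 6 of the 7 regions of intron 7 were in both replicates' thresholded lists. A further 8 distal regions lay past the 3′ end of the transcript, with signals from 4.71 to 10.7. The nearest of them, chr4:102605853-102606283 with signal 5.03, still lay inside the annotated gene. The strongest distal region, chr4:102557702-102558526 in intron 7, had 13.4, with 11.8 in replicate 1 and 11.6 in replicate 2. The region chr4:102351941-102352605 in intron 3 also had 13.4, with 11.7 and 10.4. Neither reached the top 10% of all regions.

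Pde4a had 1 of 3 protein-coding starts open and both of its noncoding starts. The open start was that of Pde4a-203 (787 residues), under the region chr9:21183242-21184421 with signal 8.85, and 8.40 and 8.43 in the replicates. Its summit lay 34 bp from the start, in the stretch printed above. The starts of Pde4a-202 (844 residues) and Pde4a-201 (610 residues) had none, although the nearest summit lay 1414 bp from the latter. The strongest distal region of Pde4a, chr9:21161033-21161935, lay 4.2 kb before the first start with signal 10.5, and 9.50 and 10.1 in the replicates. All 6 Pde4a regions met the thresholded list of replicate 1 and 4 met that of replicate 2.

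Pde4c had a single region, chr8:70729829-70730551, with signal 7.53, 6.60 in replicate 1 and 7.32 in replicate 2. It lay in intron 3 of Pde4c-201, with its summit 159 bp from the noncoding start of Pde4c-205. It met neither replicate's thresholded list. None of the 4 protein-coding starts of Pde4c, among them those of Pde4c-202 (686 residues) and Pde4c-201 (652 residues), was open.

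**Figure D3:**
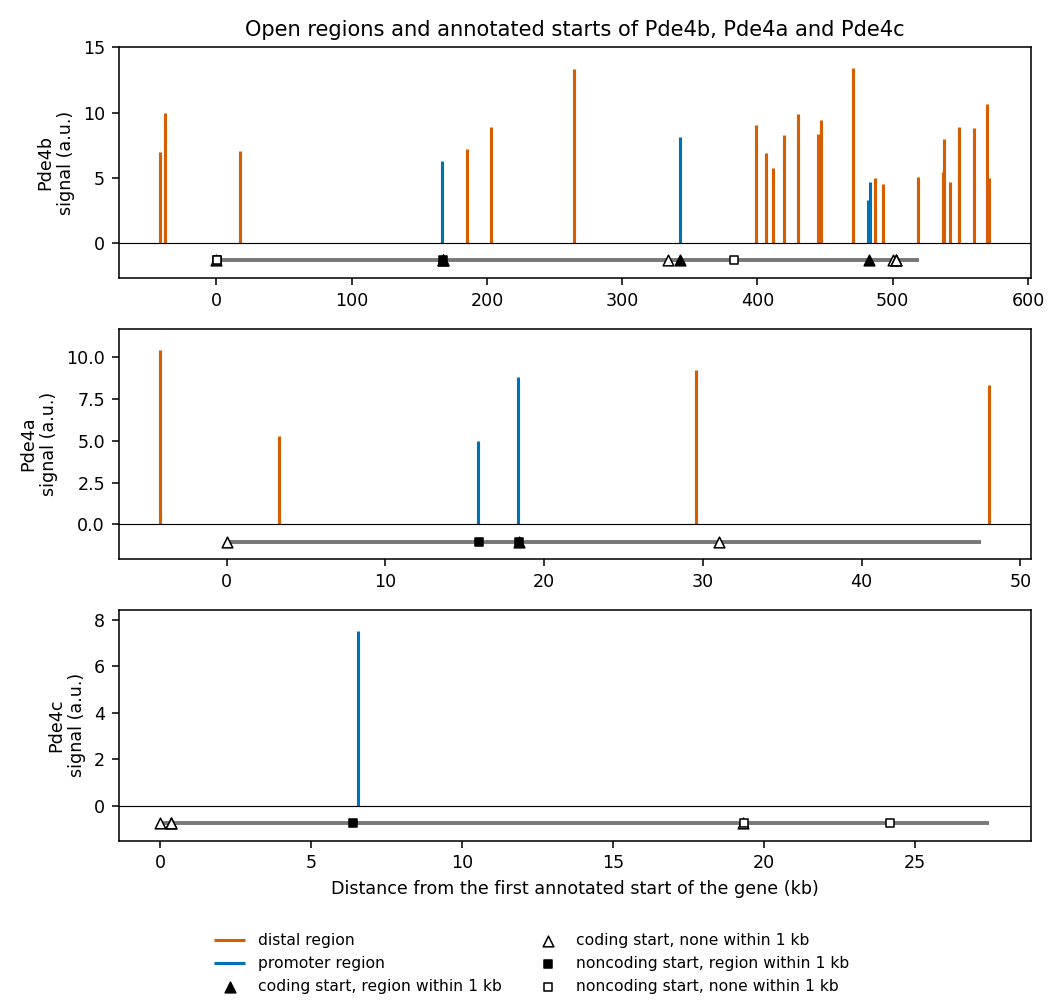
The same map for Pde4b, Pde4a and Pde4c, each on its own kb scale and with its own signal axis (arbitrary units). Pde4b regions crowd between 398.7 and 571.3 kb, Pde4a has 6 regions along 47.53 kb, and Pde4c has 1 region at a noncoding start.

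In the replicates' own thresholded lists, 65 of the 99 regions met replicate 1 (65.7%, beside 67.9% of all regions) and 47 met replicate 2 (47.5%, beside 54.9%). Both lists held 45 (45.5%, beside 50.6%), 32 were in neither, 20 in replicate 1 only and 2 in replicate 2 only. By gene, both lists held 4 of 6 regions of Pde4a, 14 of 28 of Pde4b, none of Pde4c and 27 of 64 of Pde4d. Stronger regions were held more often: of the 48 above the median signal of all regions 35 were in both lists, against 10 of the 51 below it. The same split was not counted over all regions. In the longer ranked lists 95 regions had a value in both replicates. Across these 95 regions, which come from the same 2 libraries and are not independent, Spearman's rho was 0.909, beside 0.904 over 61898 regions of the whole list. Signal was higher in replicate 1 for 43 of the 95 (45.3%), beside 42.4% of all regions.

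**Figure D4:**
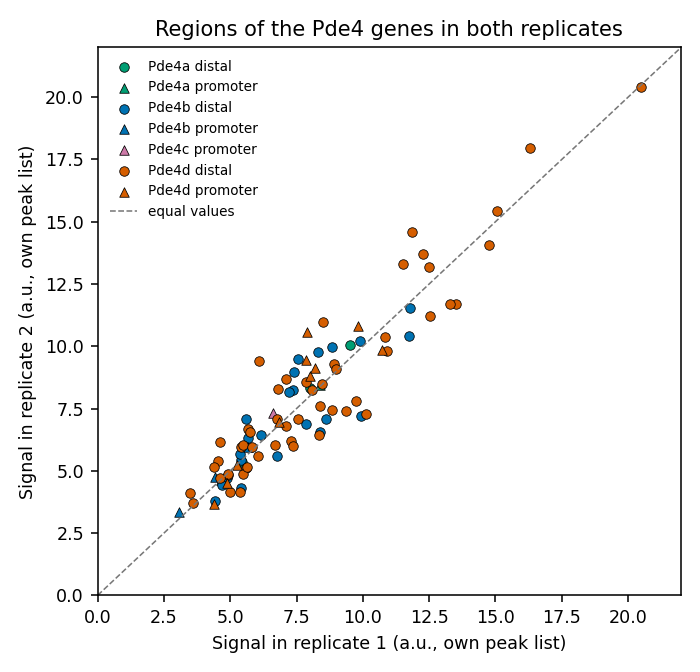
Each point is 1 of the 95 regions with a value in both replicates, with the peak signal of replicate 1 across and of replicate 2 upward (arbitrary units, each from the replicate's own ranked list). Points follow the dashed line of equal values, and the highest point is the Pde4d region of intron 2, at 20.5 and 20.4.

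The 82 distal regions of the Pde4 genes had a median signal of 8.36 against 8.09 for all distal regions. Their median width was 489 bp against 451 bp, and the median GC content of their summit windows was 49.5% against 51.5%. A median of 8.85% of a region's bases were annotated as repeats, against 9.87%. Of the 82, 9 were in the top 10% of all regions by signal and 10 in the bottom 10%, and each of the 9 belonged to Pde4d.

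Short sequence matches within 50 bp of a summit were counted on both strands, beside their share at all 41453 distal regions. The CRE, the site of CREB, which protein kinase A phosphorylates when cyclic AMP rises, was found at 1 of 82 distal regions (1.22%, against 0.239%) and at no promoter region of the family (against 1.57% of all promoter regions). Its short form, which the whole CRE also contains, was at 7 (8.54%, against 5.83%). RUNX matches were at 13 (15.9%, against 20.1%), GATA at 9 (11%, against 7.91%), PU.1 at 7 (8.54%, against 6.77%) and C/EBP at 4 (4.88%, against 5.59%). The E-box variant CAGATG was at 14 (17.1%, against 10.4%), and the CTCF motif at 2 (2.44%, against 6.3%). The AP-1 motif TGANTCA was at 2 (2.44%, against 5.71%). The MYB motif TAACNG was at 10 (12.2%, against 11.1%). At the 17 promoter regions SP matches numbered 3 (17.6%, against 33.1% of all promoter regions) and CCGGAAGT, the ETS motif, was at none (against 3.36%). A match to at least 1 of the CRE, PU.1, RUNX, GATA or C/EBP motifs was at 29 of the 82 distal regions (35.4%, against 35.8% of all distal regions) and at 4 of the 17 promoter regions (23.5%, against 17.6%).

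**Figure D5:**
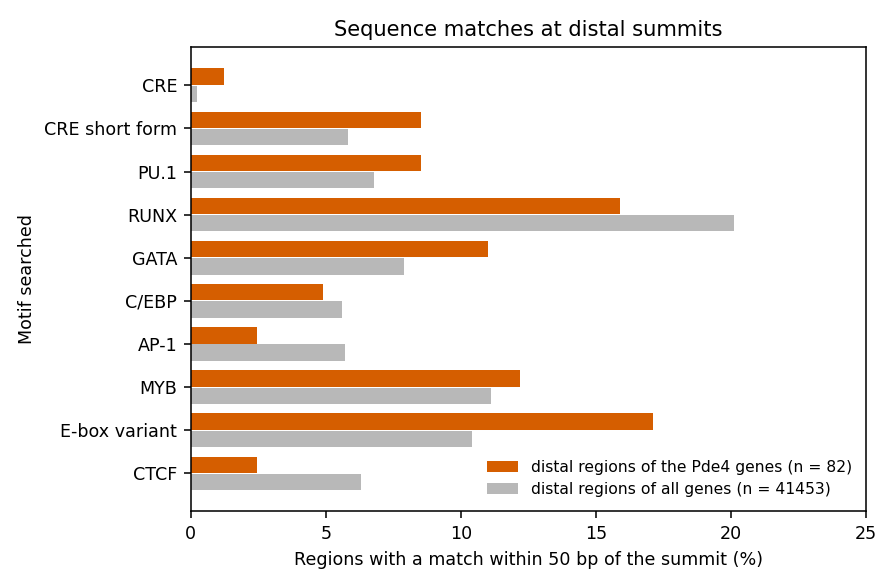
Bars give the percent of distal regions with a match within 50 bp of the summit, for the 82 of the Pde4 genes and for all 41453. With so few member regions 1 region is 1.22%, the whole bar of the CRE, and the longest member bars are the E-box variant (17.1%) and RUNX (15.9%).

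PU.1 is a lineage factor of myeloid cells, and the 7 matches to its motif are shown with 41 bases each, centred on the match, to show where they lie in the genes. Pde4d and Pde4b, which have nearly all distal regions of the family, hold all 7. In Pde4d they lie at chr13:108937466-108937506 (in the region of signal 16.3, intron 2), chr13:109239435-109239475 (signal 13.4, intron 3) and chr13:109232084-109232124 (signal 5.10, intron 3). In Pde4b they lie in intron 7 at chr4:102517150-102517190 (signal 9.90) and chr4:102534167-102534207 (signal 9.44), and past the 3′ end at chr4:102647227-102647267 (signal 8.83) and chr4:102658737-102658777 (signal 5.00). Capitals mark GAGGAAGT or its reverse complement ACTTCCTC.
Pde4d intron 2: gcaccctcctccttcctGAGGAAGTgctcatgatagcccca
Pde4d intron 3, stronger: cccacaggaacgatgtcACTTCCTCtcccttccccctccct
Pde4d intron 3, weaker: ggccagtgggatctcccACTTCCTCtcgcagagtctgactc
Pde4b intron 7, first: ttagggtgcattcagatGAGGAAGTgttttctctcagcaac
Pde4b intron 7, second: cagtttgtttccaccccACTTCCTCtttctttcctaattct
Pde4b past the 3′ end, nearer: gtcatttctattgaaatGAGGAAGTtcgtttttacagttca
Pde4b past the 3′ end, farther: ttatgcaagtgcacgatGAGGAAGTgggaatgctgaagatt

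RUNX and GATA factors act together in progenitors, and both motifs lay in the same summit window at 2 of the 82 distal regions (2.44%, beside 1.67% of all distal regions). The windows are printed to show the arrangement, 1 at Pde4d and 1 at Pde4b. The Pde4d window, chr13:108861859-108861959, belongs to an intron 2 region of signal 8.55 (8.40 in replicate 1 and 7.59 in replicate 2), 1.74 kb from the start of Pde4d-220. The Pde4b window, chr4:102636095-102636195, belongs to a region past the 3′ end with signal 8.86 (7.57 and 9.51). Capitals mark TGTGGT and AGATAA on either strand.
Pde4d intron 2, RUNX and GATA: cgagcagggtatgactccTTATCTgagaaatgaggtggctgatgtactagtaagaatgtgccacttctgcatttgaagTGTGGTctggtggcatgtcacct
Pde4b past the 3′ end, RUNX and GATA: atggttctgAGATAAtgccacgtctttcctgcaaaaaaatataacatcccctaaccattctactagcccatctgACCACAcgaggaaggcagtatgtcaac

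The limits of the set fell as follows. Peaks of the conservative list had a score for irreproducible discovery rate of at least 540. Just inside was the Pde4a region chr9:21213627-21213880 with a score of 543, and just outside was a Pde4d peak at chr13:108819933-108820256 with 517 and signal 6.31. Under the limit the ranked list held a further 10 promoter and 52 distal regions of the 4 genes, with 4 and 31 of them at Pde4d. Some of these 10 lay within 1 kb of protein-coding starts described above as without a region. Those starts were Pde4d-220, Pde4b-208, Pde4b-201, Pde4b-202, Pde4b-204, Pde4a-202, Pde4a-201 and Pde4c-207. By distance, the farthest distal region lay 96.8 kb from its start, 3′ of Pde4d, and the nearest region beyond the limit inside Pde4d lay 121.2 kb from a start. The lowest signal of a member was 2.29, in intron 3 of Pde4d at chr13:109609499-109609679.

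A list of 68 other genes took in genes of cyclic AMP signalling and all other cyclic nucleotide phosphodiesterase genes, whether or not they act on cyclic AMP. Of these, 47 had a promoter region (69.1%, beside the 63.5% of all genes), and none of the 68 had more distal regions than Pde4b. Of the 20 other cyclic nucleotide phosphodiesterase genes 12 had a promoter region, with at most 13 distal regions, at Pde10a. Pde7b, also specific for cyclic AMP, had a promoter signal of 12.9 and 9 distal regions, and Pde3b had 5 distal regions and no promoter region. Of the 10 adenylyl cyclases, which make cyclic AMP, 5 had a promoter region, Adcy7 with 5 of them and 8 distal regions. All 6 subunits of protein kinase A had one, from Prkar2a at a signal of 6.38 to the catalytic subunit Prkaca at 15.8. So did all 8 genes of the CREB family and its coactivators, from Atf1 at 6.03 to Crtc2 at 16.7. Of 8 Gs-coupled receptors 3 had one, among them the prostaglandin E2 receptors Ptger2, with 12 distal regions, and Ptger4, with 6. Among 9 partners of Pde4 proteins 8 had one, and Akap13, an anchor of protein kinase A, had 21 distal regions. The strongest promoter region of these 47 genes had a median signal of 8.8, against 11.4 at Pde4d, 8.85 at Pde4a, 8.16 at Pde4b and 7.53 at Pde4c. The Pde4d value is the highest of its 10 promoter regions. Among all genes with a promoter region, the strongest lay at percentile 59.7 for Pde4d, 32.7 for Pde4a, 25.7 for Pde4b and 19.5 for Pde4c.

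Genes most like each member were found from gene length, number of distal regions and number of promoter regions over the 20722 genes, all from the 1 joint list. For Pde4d they were Foxp1 (597.4 kb, 24 distal and 11 promoter regions), Tns1 and Utrn, but at distances of 1.64, 3.06 and 3.77 standardised units, which were larger than for any other member. For Pde4b they were Nav2, Bach2 and Mecom, from 0.254 to 0.368 units. Pde4a and Pde4c had many near neighbours, with Itgb1, Stxbp3 and Cpox nearest to Pde4a and Cd200r4, Ndufa9 and Spg21 nearest to Pde4c.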

How the data were processed

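ATAC-seq peak lists of 2 libraries were used. Per the notes deposited beside the files, each replicate's lists came from its own filtered alignments to mm10, and the joint lists from both sets of alignments. The sources used here do not name an aligner or peak caller, and whether reads were shifted for the transposase is not given in them. The authors deposited a signal value for each peak, whose normalization is not stated, and a −log10 p, which was not used to choose regions. The deposited score of the ranked list relates to the irreproducible discovery rate (IDR): every row of the conservative list scored at least 540, but on chromosomes 1 to 19 that score was reached by 99829 ranked rows, of which the list held 99669.

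On chromosomes 1 to 19, the 99669 rows of the conservative list were merged where they overlapped, keeping the strongest summit. All region ends lay within the GRCm38.p6 chromosomes. Regions were set against GENCODE M21 starts of 20722 protein-coding genes, with a 1 kb window and a 100 kb limit. Replicate values come from each replicate's own lists (overlap of 1 bp or more). The genes, regions and lists were chosen with earlier results of these data known. Named genes were the members, the listed cyclic nucleotide signalling genes and the 3 nearest neighbours of each member. A listed gene is not reported here by name. Genes named as leaders in distal regions, among the longest genes or as a neighbouring start were chosen after their values were seen. No test was made: the regions were chosen on these values, and there is 1 group. Alternatives were other lists, either replicate alone, other windows and other starts. The methods were tested on simulated data. Python 3.11.15, NumPy 2.4.6, SciPy 1.17.1 and Matplotlib 3.10.9 were used.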

Additional observations from a re-analysis of the deposited data

How the results depend on the processing

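Of 53 values recomputed, 37 stayed within 1.5 times the reported one, and Pde4d had the most distal regions of all genes under each of the 12 alternatives to the lists, windows and starts. Distal regions of the 4 genes and of Pde4d numbered 133 and 84 in the replicated peaks list, 141 and 91 in the pseudoreplicated list, and 42 and 28 in the upper 50% of regions by signal, where 2 genes had a promoter region and 11 starts were open. In the list of 1 replicate alone, distal regions of the family numbered 39 to 54, those of Pde4d 22 to 33 and open starts 14 to 17. There the listed cyclic nucleotide signalling genes with a promoter region numbered 37 to 41, and 3 members had a promoter region in each replicate's list. Open starts numbered 34 in the replicated peaks list and 34 in the pseudoreplicated list, against 23 in the main list. They fell to 10 with starts of basic transcripts only, since fewer starts were counted. For the same reason they fell to 12 with starts of protein-coding transcripts only, an alternative chosen after seeing the data. With each replicate's pseudoreplicated list, 95 regions met both replicates in place of 45. The cause of the other changes was not tested. No paired analysis was possible because there is 1 group. Without read counts the depth behind a missing region is unknown, so a start without a region was only not called open at this depth.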
